A study of Mus musculus with 6 samples.

Results

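White fat cells of the skin were followed here through 34 genes of adipocyte identity, lipid droplets and lipolysis, measured by poly(A) RNA sequencing of mouse ear skin. The genes were taken by symbol from a table of 18404 genes, and all 34 were found. They fall into blocks of 5 adipogenic factors, 5 adipokines, 9 lipid droplet proteins, 6 lipolysis genes, 4 genes of insulin-sensitive transport and glycerol supply and 4 brown fat genes, with the precursor marker Cd24a beside them. The ecko group held 3 libraries from pups at postnatal day 3 with an induced, endothelial-specific deletion of Kdr, which encodes the VEGF-A receptor VEGFR2. The control group held 3 libraries of littermates at the same day. Both groups received tamoxifen to induce deletion, on postnatal days 1 to 2 at 60 µg per day, and the name of the series gives 48 h. The Cre driver, the genotype of the controls and whether all replicates are separate pups are not given in the sources used here. The p-values thus measure the spread between these libraries, which may be technical in part.

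As background, PPARγ and the C/EBP proteins switch on the adipocyte program in fibroblast-like precursors, and the finished cell stores triglyceride in a droplet coated with perilipins. Lipolysis releases this store stepwise, through adipose triglyceride lipase, hormone-sensitive lipase and monoglyceride lipase, and catecholamines start it in mouse fat through the β3 receptor. In mouse skin the fat layer under the dermis forms around birth, and its capillaries supply the fatty acids that it stores. Adipogenic factors are not limited to fat, since keratinocytes, sebaceous glands, muscle and macrophages use several of them.

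Libraries held 16987130 to 17979182 expected counts. Kdr, the check of the labels, had 19.4, 24.2 and 21.6 CPM (reads scaled to a common library size) in ecko 1, 2 and 3, against 89.9, 103 and 77.1 CPM in control 1, 2 and 3. It fell in ecko, with a log2 fold change of -2.05 (SE 0.12, edgeR adjusted p 0.0002). Control 3 stood apart from the other libraries, with a chi-square per gene of 13.2 to 19.8 in its pairs, against 4.18 to 11.5 in all other pairs. Its summed level of 8 skeletal muscle genes was 5069 CPM, against 7041 to 8525 CPM in ecko and 7556 to 9009 CPM in the other 2 controls. The Y-linked gene Ddx3y had 6 counts in ecko 3 and 4 in control 2, against 1445 to 1641 counts in the other 4 libraries. Each group thus held libraries from different pups, but whether all its replicates are separate pups is not given. White adipocyte markers were present in every library, and none of the 8 was at 0. Their summed level ran from 1288 to 1640 CPM in ecko and from 1414 to 2028 CPM in control. For 7 of 8 the ecko mean was the lower one (87.5%, against 50.5% of all genes), with a median fold change of -0.18 in log2. Of these 8, 6 are members, and 3 had an unadjusted p under 0.05, all lower. In RNA of whole skin, fewer fat cells and less RNA per fat cell cannot be told apart.

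Cfd, Adipoq and Cd24a had the highest levels of the 34 transcripts per kb of exon, in both groups. Cfd, which encodes the complement protease adipsin, averaged 333 CPM per kb in ecko and 366 CPM per kb in control. Adipoq, the gene of the fat hormone adiponectin, averaged 165 CPM per kb in ecko and 186 CPM per kb in control. Cd24a, a surface glycoprotein of fat precursors that keratinocytes also make, followed with 153 CPM per kb in ecko and 164 CPM per kb in control. Plin2, Cebpa, Cidec, Pnpla2 and Pck1 lay between 49.8 and 70.6 CPM per kb in ecko and between 44.2 and 72.6 CPM per kb in control. Gpd1 had 46.3 CPM per kb in ecko and 76.9 CPM per kb in control. At the low end stood the 4 brown fat genes with Adrb3 and Plin5, each under 2 CPM per kb in both groups.

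**Figure D1:**
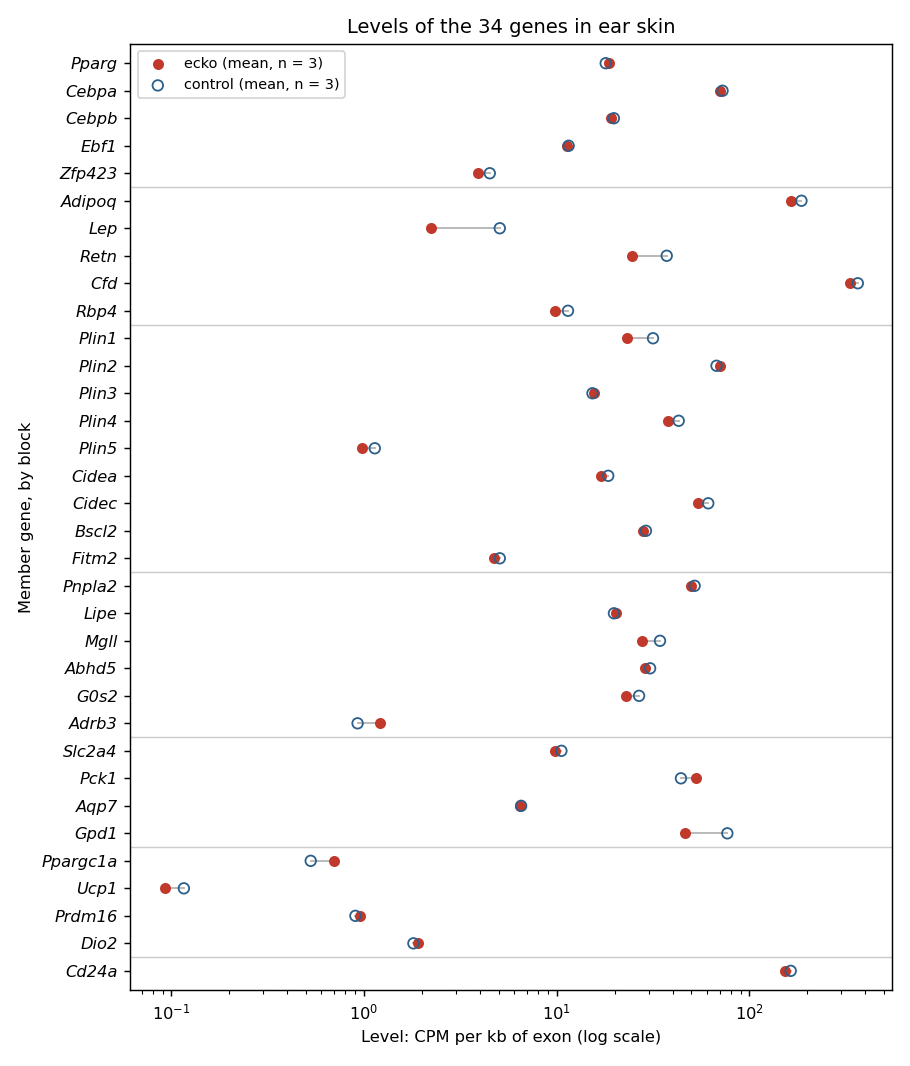
Mean level of each of the 34 genes in ecko (filled) and control (open), in CPM per kb of exon on a log scale, with lines between blocks. Cfd and Adipoq lie at the right in both groups and Ucp1 at the left, and the widest gaps between groups are those of Lep, Retn and Gpd1.

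None of the 34 genes passed the test between ecko and control. A low-count filter left 33 of them, all but Ucp1, in a quasi-likelihood test of edgeR over 14920 genes, where 0 members were called higher and 0 lower at an adjusted p of 0.05. Over all genes that test called 0.0067% lower, which is Kdr alone, and 0% higher. By unadjusted p under 0.05, 5 members were lower (15.2% of the 33, against 4.1% of all genes) and 0 higher (against 4.92% of all genes). These were Lep, Retn, Plin1, Mgll and Gpd1. DESeq2 called 1 member lower, Plin1 (adjusted p 0.0375), and 0 higher, where it called 0.174% of all genes lower and 0.583% higher. The mean was lower in ecko for 24 of the 33 (72.7%, against 50.5% of all genes), and 16 without control 2. The members' median log2 fold change was -0.10, against -0.0020 over all genes, and it was 0.01 without control 2. In 4 members the ecko libraries all lay below the controls (12.1%, against 8.11% of all genes), and in 1 they all lay above (3.03%, against 7.55%). Both shares are near those of all genes. Without control 3 the first count was 11 (against 14% of all genes) and without ecko 2 it was 7 (against 14.1%). It was 6 without control 1 (against 15.6%), 5 without control 2 (against 13.2%), 4 without ecko 1 (against 10.4%) and 5 without ecko 3 (against 13.3%).

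**Figure D2:**
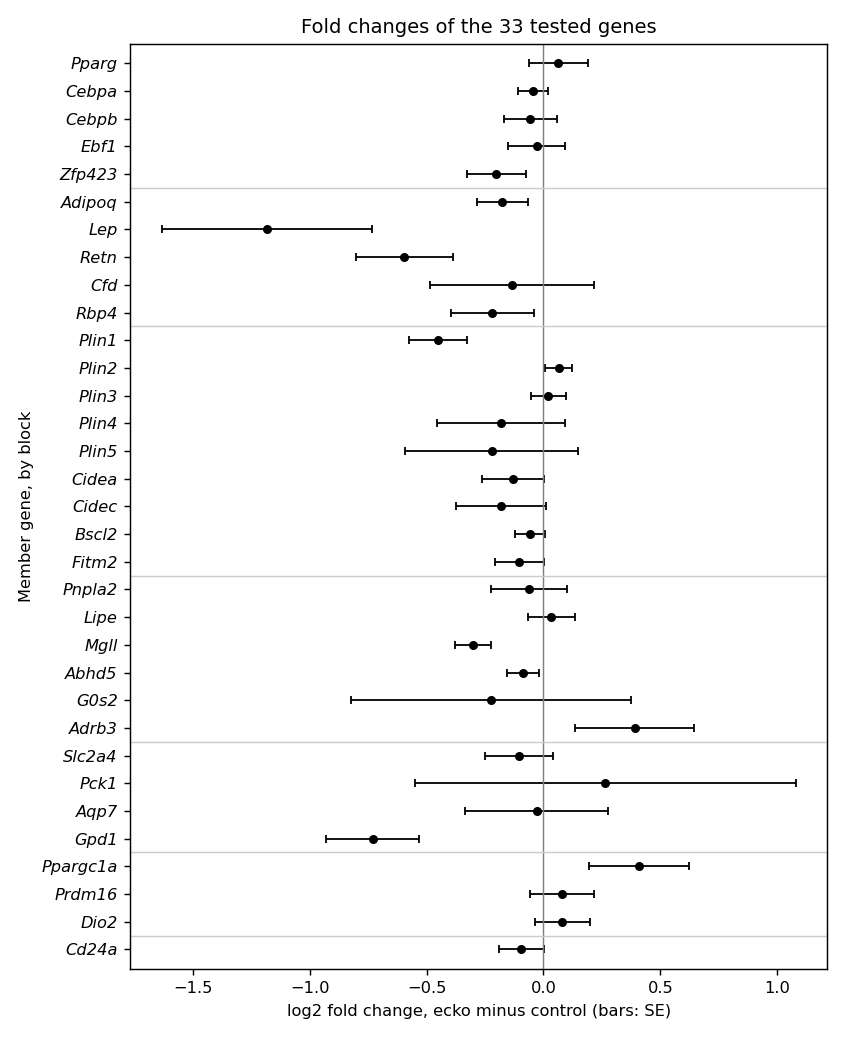
Log2 fold change (ecko minus control) of the 33 tested genes with the standard error of the edgeR fit, by block. Lep, Retn, Plin1, Mgll and Gpd1 lie left of 0 by more than 2 standard errors, and most other members have bars that reach or cross 0.

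None of the adipogenic transcription factors passed the test, and the groups of each overlapped. Pparg, the nuclear receptor that commits cells to fat, had 47.5, 39.6 and 46.9 CPM in ecko, against 42.2, 50.4 and 35.6 CPM in control. Its libraries overlapped fully, and the log2 fold change was 0.06 ± 0.13 (SE; edgeR adjusted p 0.894). Cebpa, which works with PPARγ to keep cells fat, had 190.2, 172 and 194 CPM in ecko, against 189.8, 198 and 186 CPM in control (-0.05 ± 0.07). Zfp423, a zinc finger factor of committed preadipocytes, had 16.9, 20.4 and 22.0 CPM in ecko, against 19.95, 22.7 and 25.5 CPM in control. That is a log2 fold change of -0.20 ± 0.13, the most negative of the block, with groups that overlapped. Cebpb, an early inducer of the program, and Ebf1, a factor that acts in fat and B cell precursors, had -0.06 and -0.03. The block's median was -0.05, and no member had an unadjusted p under 0.05.

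Among adipokines, leptin and resistin transcripts were the lowest in ecko relative to control. Lep (chromosome 6, 29060221 to 29073876 of GRCm38.p6) encodes leptin, the hormone that reports fat stores to the brain. It had 64, 230 and 91 counts in ecko, or 3.56, 12.9 and 5.32 CPM, against 329, 258 and 290 counts in control, or 18.5, 14.3 and 16.7 CPM. All 3 ecko libraries lay below all controls, but ecko 2 came near to control 2. The means were 7.26 ± 4.96 CPM in ecko and 16.5 ± 2.12 CPM in control (SD, n = 3 each), and the fold change was -1.18 ± 0.45 in log2 (SE; edgeR adjusted p 0.542). Without ecko 2 it was -1.89 with an adjusted p of 0.0567, and without ecko 1 -0.86 with an adjusted p of 0.980.

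Retn (chromosome 8, 3655770 to 3659818) encodes resistin, a hormone made by mouse fat cells. It had 30.9, 50.1 and 35.7 CPM in ecko, against 66.0, 64.3 and 46.1 CPM in control, so that ecko 2 lay above control 3. Its log2 fold change was -0.60 ± 0.21, with an adjusted p of 0.513 by edgeR and 0.0575 by DESeq2. Adipoq had 179.7, 226 and 235 CPM in ecko, against 245, 264 and 214 CPM in control. Here the groups overlapped and the log2 fold change was -0.18 ± 0.11 (adjusted p 0.650). Rbp4, the retinol carrier of plasma, had -0.22 ± 0.18, and Cfd had -0.13 ± 0.35. All 5 adipokine means were lower in ecko, but that of Cfd was the higher one without control 2 (0.18) and level without ecko 1 (0.0026). None passed, and the block's median of -0.22 ran from -0.39 without control 2 to -0.099 without ecko 1, and was -0.47 with a sebaceous gland covariate.

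The 250 bases upstream of a RefSeq start are shown for Lep, Retn, Plin1 and Adipoq. Lep, Retn and Plin1, the droplet gene described below, are 3 of the 5 genes with an unadjusted p under 0.05. Adipoq is the gene of the fat hormone adiponectin. They come from RefSeq on GRCm38.p6 and run 5′ to 3′ on the strand of the gene. Capitals mark TTGCNNAA, a core of C/EBP-type elements, AGGTCA, the core of PPAR and other nuclear receptor elements, both searched on both strands, and TATAA, searched on the gene's strand. None of the marked stretches overlap.
Lep, chr6:29059971-29060220, plus strand: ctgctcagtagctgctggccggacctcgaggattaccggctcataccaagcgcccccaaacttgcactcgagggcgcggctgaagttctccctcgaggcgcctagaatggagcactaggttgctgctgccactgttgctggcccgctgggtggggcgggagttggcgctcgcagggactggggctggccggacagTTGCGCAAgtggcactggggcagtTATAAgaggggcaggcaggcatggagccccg
Retn, chr8:3655520-3655769, plus strand: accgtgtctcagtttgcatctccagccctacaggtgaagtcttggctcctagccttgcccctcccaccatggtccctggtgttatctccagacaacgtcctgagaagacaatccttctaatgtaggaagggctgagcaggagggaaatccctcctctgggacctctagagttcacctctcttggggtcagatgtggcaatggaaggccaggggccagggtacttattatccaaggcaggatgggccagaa
Plin1, chr7:79732777-79733026, minus strand: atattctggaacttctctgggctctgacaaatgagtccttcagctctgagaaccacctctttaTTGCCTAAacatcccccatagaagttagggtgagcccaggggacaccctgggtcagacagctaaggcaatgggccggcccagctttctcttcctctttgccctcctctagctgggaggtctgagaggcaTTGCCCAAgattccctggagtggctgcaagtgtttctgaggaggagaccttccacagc
Adipoq, chr16:23146286-23146535, plus strand: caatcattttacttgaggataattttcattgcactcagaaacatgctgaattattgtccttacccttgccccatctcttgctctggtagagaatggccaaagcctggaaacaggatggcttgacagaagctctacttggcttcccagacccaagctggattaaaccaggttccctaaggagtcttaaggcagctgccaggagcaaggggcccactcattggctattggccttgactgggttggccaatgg
Lep held TTGCGCAA at positions -55 to -48 and TATAA at -31 to -27, counted back from the start, where -1 is the base just before it. Plin1 held TTGCCTAA at -187 to -180 and TTGCCCAA at -58 to -51. Its window is counted from a start that lies inside the full span of the gene, so that the 128 bases nearest to this start, TTGCCCAA among them, are within the gene as annotated from its outermost start. The windows of the other 3 genes lie wholly outside the gene. No stretch is in capitals for Retn or Adipoq, which says only that these letters are not in those windows. Among 41 such windows of 29 members in the table, 7 held TTGCNNAA (17.1%), against 9.56% of 32851 windows of all genes. AGGTCA was in 10 of the 41 (24.4%, against 14.0%) and TATAA in 8 (19.5%, against 16.0%). A match is a description of letters and not of binding.

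In the lipid droplet block Plin1 had the most negative log2 fold change and was the only member whose groups did not overlap. Plin1 (chromosome 7, 79721164 to 79732904) encodes perilipin 1, the coat of the adipocyte droplet that holds lipases off the store until hormones call for it. It had 72.2, 105 and 91.5 CPM in ecko, against 129, 126 and 112 CPM in control, without overlap. The means were 89.6 ± 16.5 CPM in ecko and 122 ± 8.81 CPM in control (SD, n = 3 each). The log2 fold change was -0.45 ± 0.13 (SE), with an adjusted p of 0.438 by edgeR. Over the other edgeR fits the adjusted p ran from 0.214 with a replicate block to 0.980 without ecko 1.

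Plin2, the coat of droplets in most cell types, was level between groups. It had 138, 128 and 134 CPM in ecko, against 123, 127 and 132 CPM in control, and a log2 fold change of 0.06 ± 0.06. Plin3, the other widespread coat protein, had 0.02 ± 0.07. Plin4, which coats small new droplets in fat cells, and Plin5, the perilipin of oxidative tissues, had -0.18 ± 0.27 and -0.22 ± 0.37. Their wide errors come with control libraries that ran from 159 to 322 CPM for Plin4 and from 1.15 to 3.38 CPM for Plin5. Without control 3 Plin4 had -0.42 and Plin5 -0.54, against -0.50 for Plin1. Without control 2 Plin4 had 0.05 and Plin5 0.12, against -0.44 for Plin1. Differences between perilipins were not tested. Cidec, which fuses droplets into 1 large droplet, had -0.18 ± 0.19, and its relative Cidea, found in brown fat and sebaceous glands, -0.13 ± 0.13. Bscl2, the seipin gene of droplet birth, had -0.06 ± 0.06, and Fitm2, which helps droplets bud from the endoplasmic reticulum, -0.10 ± 0.10. Of the 9 members 7 had a lower mean in ecko, 0 passed, and the median was -0.13. That median turned to 0.05 without control 2.

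In the lipolysis block the last enzyme of the pathway had the smallest p and the first enzymes were level. Mgll (chromosome 6, 88724412 to 88828360) encodes monoglyceride lipase, which frees the last fatty acid. It had 121, 145 and 137 CPM in ecko, against 161, 176 and 159 CPM in control, without overlap. The log2 fold change was -0.30 ± 0.08 (SE), with an adjusted p of 0.345 by edgeR and 0.0871 by DESeq2. Pnpla2, the adipose triglyceride lipase gene, had 140.4, 116 and 136 CPM in ecko, against 129, 171 and 109 CPM in control, and a log2 fold change of -0.06 ± 0.16. Lipe, the hormone-sensitive lipase gene, had 102, 112 and 119 CPM in ecko, against 111, 122 and 92.4 CPM in control (0.03 ± 0.10). For both lipases the ecko libraries lay within the range of the controls.

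Abhd5, the activator of adipose triglyceride lipase, had a log2 fold change of -0.09 ± 0.07. G0s2 encodes an inhibitor of the same lipase and had 9.52, 34.6 and 15.8 CPM in ecko, against 30.4, 26.8 and 12.7 CPM in control. The spread within each group was larger than the gap between the groups (-0.22 ± 0.60). Adrb3, the β3 adrenergic receptor gene, had 67, 58 and 61 counts in ecko, or 3.73, 3.25 and 3.57 CPM, against 57, 58 and 28 counts in control, or 3.20, 3.21 and 1.61 CPM. It was the 1 member with all ecko libraries above all controls, and its log2 fold change of 0.39 ± 0.25 (adjusted p 0.659) became 0.14 without control 3. The block's median was -0.07, and 0.02 without control 2.

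Glycerol supply and glucose transport gave the second largest fold change of the 34 genes, in Gpd1. Gpd1 (chromosome 15, 99717587 to 99725014) encodes glycerol-3-phosphate dehydrogenase, which makes the glycerol backbone of triglyceride from glucose. It had 1809, 3125 and 2080 counts in ecko, or 101, 175 and 122 CPM, against 4278, 3844 and 3584 counts in control, or 240.5, 213 and 207 CPM. All 3 ecko libraries lay below all controls, with means of 133 ± 38.4 CPM in ecko and 219.9 ± 18.0 CPM in control (SD, n = 3 each). The log2 fold change was -0.73 ± 0.20 (SE), or 0.603-fold, with an adjusted p of 0.459 by edgeR and 0.255 by DESeq2. Without ecko 2 it was -0.98 with an edgeR adjusted p of 0.0567, and without ecko 1 -0.57 with an adjusted p of 0.980.

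Slc2a4 encodes GLUT4, the insulin-responsive glucose carrier of fat and muscle. It had 26.6, 29.3 and 26.9 CPM in ecko, against 32.4, 34.2 and 22.4 CPM in control, with ecko inside the range of control (-0.10 ± 0.14). Aqp7, the channel through which glycerol leaves fat cells, had a log2 fold change of -0.03 ± 0.31, and 0.05 with limma-voom. Pck1 makes phosphoenolpyruvate for glycerol synthesis in fat, and is described with the variation between libraries. The block's median was -0.07, with 3 of 4 means lower in ecko and 0 members past the test, and it was 0.15 without control 2.

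Brown fat transcripts were scarce. Ucp1, the uncoupling protein that defines brown and beige fat, had 4, 1 and 3 counts in ecko, against 2, 2 and 6 counts in control, and did not pass the low-count filter. At this depth no difference in Ucp1 was detectable. Ppargc1a, a coactivator of mitochondrial genes in brown fat and muscle, had 4.95, 4.43 and 4.21 CPM in ecko, against 4.44, 3.26 and 2.54 CPM in control. The ecko libraries were the higher ones on average, but ecko 2 and 3 lay below control 1 (0.41 ± 0.21, adjusted p 0.598). Dio2, which activates thyroid hormone, had 11.6, 11.4 and 10.2 CPM in ecko, against 11.2, 10.3 and 9.97 CPM in control, a log2 fold change of 0.08 ± 0.12. Prdm16, a switch of brown fat fate, also had 0.08 ± 0.14. Cd24a had 273, 316 and 348 CPM in ecko, against 336, 303 and 362 CPM in control, and its log2 fold change of -0.10 ± 0.10 lay within the spread of either group.

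**Figure D3:**
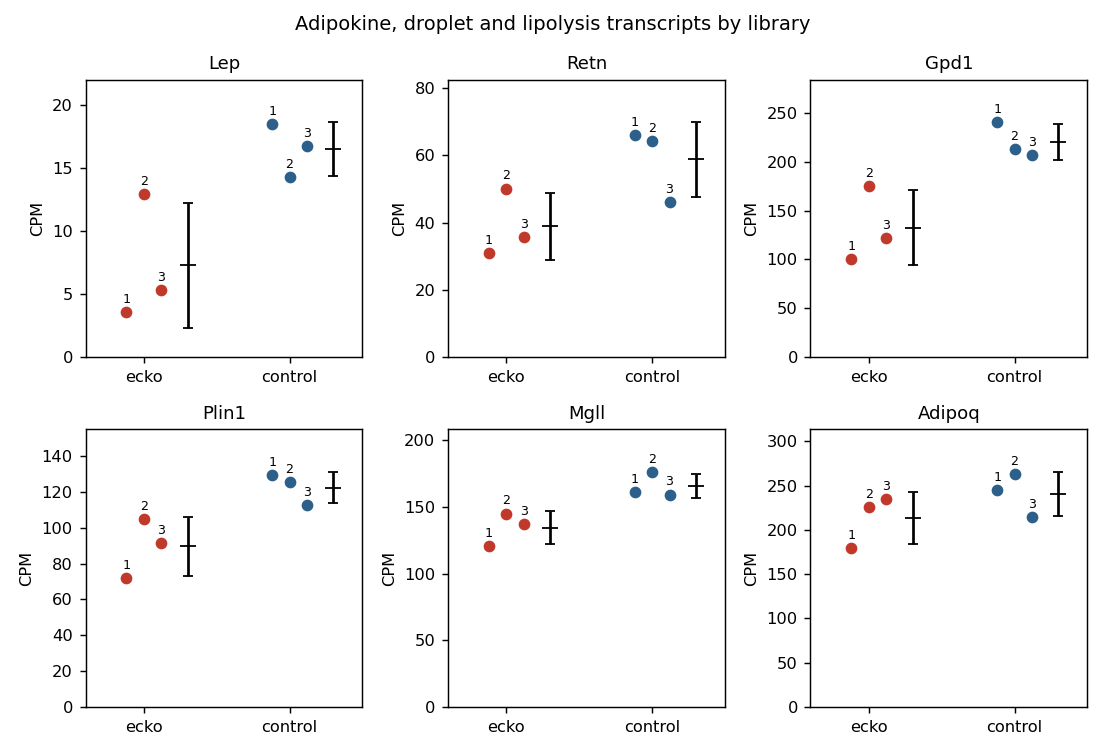
CPM of 6 genes in each library, with the replicate number above each point and the mean ± SD (n = 3) beside it, ecko left and control right. For Lep, Gpd1, Plin1 and Mgll every ecko point lies below every control point, ecko 1 is the lowest point in all 6 panels, and ecko 2 is the highest ecko point in all but Adipoq.

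The 5 genes with an unadjusted p under 0.05 ranked the ecko libraries alike. Lep, Retn, Plin1, Mgll and Gpd1 were each lowest in ecko 1, next in ecko 3 and highest in ecko 2. G0s2, Rbp4, Plin4, Fitm2 and Slc2a4 shared this order, which makes 10 of the 33 tested members, against 18.9% of all genes. Ecko 1 was the lowest of the 6 libraries in 11 members, against 21.1% of all genes. Control 3 was the lowest in 16 members, against 29.3% of all genes, among them Pparg, Cfd, Plin4, Cidec, Pnpla2, Lipe, Slc2a4 and Pck1. Control 2 was the highest library in 15 members (against 16.2% of all genes) and the lowest in 0 (against 14.5%). Beyond the covariate fit given next, whether the muscle content of control 3 has a part in these values was not tested. With the muscle level as a covariate 0 members were called, and 25 means were lower in ecko. With the sebaceous gland level as a covariate 0 were called, 18 means were lower and the members' median was -0.024.

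Pck1 and Cfd varied more between libraries of a group than between groups. They and Aqp7 are described by library because of values already seen. Pck1 had 89.1, 95.8 and 239 CPM in ecko, against 81.5, 227 and 44.1 CPM in control. Its 2 highest libraries, ecko 3 and control 2, are those almost without Y-linked reads. Cfd had 245, 274 and 402 CPM in ecko, against 324, 471 and 216 CPM in control, and Aqp7 had 14.4, 16.3 and 18.6 CPM in ecko, against 17.5, 23.3 and 9.34 CPM in control. Both were highest in these libraries too. With Cebpa and Lipe this makes 5 members in which ecko 3 and control 2 both lay above the other 4 libraries, against 6.66% of all genes.

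When a term for the mean level of 4 Y-linked genes joined the fit, it had for Pck1 an unadjusted p of 0.00124 and an edgeR adjusted p of 0.350. For Cfd the unadjusted p was 0.00293 and the adjusted p 0.583. Among the 4 libraries with Y-linked reads alone, Lep had a log2 fold change of -1.10, Gpd1 -0.70, Plin1 -0.45 and Mgll -0.27, each with an edgeR adjusted p of 0.830. In those 4 libraries 15 of the 33 members had a lower mean in ecko, and the members' median was 0.01. The labels do not give the sex of the pups.

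**Figure D4:**
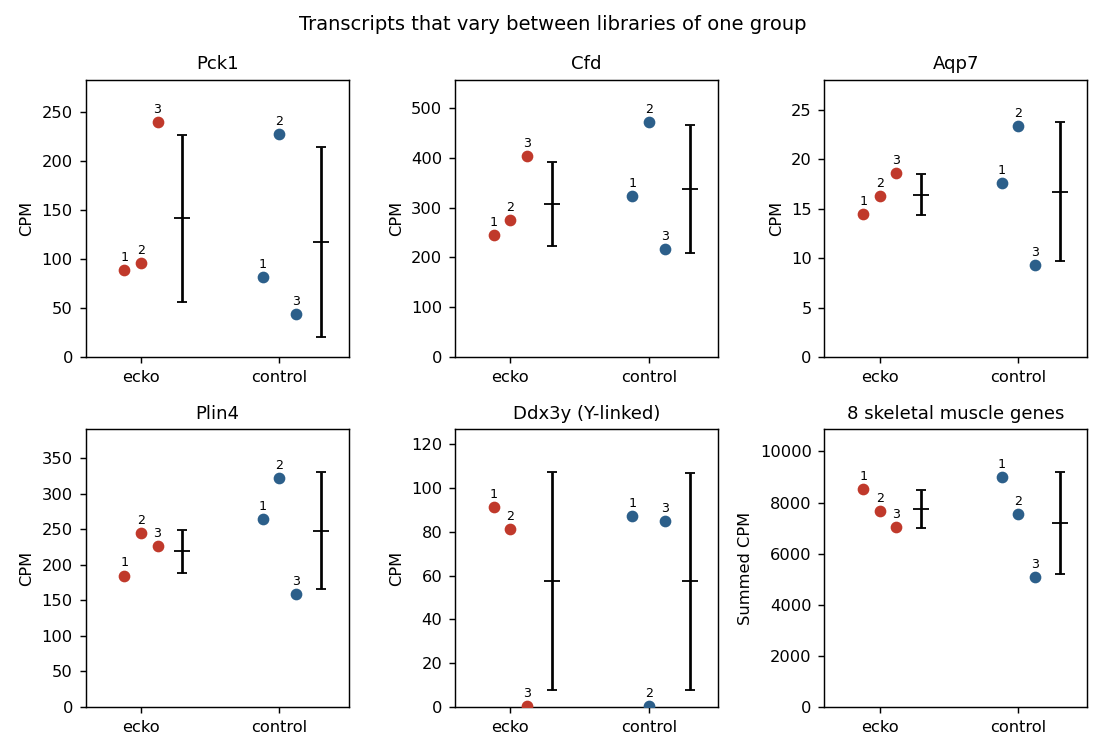
CPM per library of Pck1, Cfd, Aqp7, Plin4 and the Y-linked gene Ddx3y, and the summed CPM of 8 skeletal muscle genes, with replicate numbers and the mean ± SD (n = 3), ecko left and control right. Ecko 3 and control 2 are high for Pck1 and Cfd and near 0 for Ddx3y, and control 3 is lowest for Pck1, Cfd, Aqp7, Plin4 and the muscle genes.

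Relative to adiponectin transcripts of the same library, Gpd1 and Plin1 were still lower in ecko. Adipoq was taken as the yardstick after its values were seen. The ratio of Gpd1 to Adipoq was 0.560, 0.776 and 0.519 in ecko, against 0.983, 0.807 and 0.964 in control. For Plin1 the ratio was 0.402, 0.465 and 0.390 in ecko, against 0.528, 0.477 and 0.525 in control. Neither gene's groups overlapped, as was already so by CPM, and they were the only 2 lower ones among the 32 ratios of members (against 0.395% of all genes). Adipoq itself had a lower mean in ecko, which raises ratios to it in ecko. By CPM 8.11% of all genes were lower without overlap and 7.55% higher, against 0.395% and 15.5% as ratios. These shares of ratios are thus no measure for fat genes that vary with Adipoq. Ratios of Lipe, Adrb3 and Prdm16 were higher in every ecko library than in any control, against 15.5% of all genes. Lipe per Adipoq was 0.570, 0.495 and 0.509 in ecko, against 0.455, 0.464 and 0.431 in control. Lep and Mgll, without overlap by CPM, overlapped as ratios, though both mean ratios were still lower in ecko. Lep per Adipoq was 0.0571 in ecko 2, against 0.0542 in control 2. For Mgll the ratio was 0.673 in ecko 1, against 0.660 in control 1. With 3 libraries a group, exact permutation cannot give a p below 0.1, and single ratios were not tested.

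A further list of 42 genes held fatty acid uptake and triglyceride synthesis genes beside insulin signalling, receptor and transcription factor genes, and none of the 41 tested passed in edgeR. Of the 41, 26 had a lower mean in ecko (63.4%, against 50.5% of all genes) and 15 a higher mean, with a median log2 fold change of -0.05. Unadjusted p under 0.05 was met by 10 lower genes (24.4%, against 4.1% of all genes) and by 1 higher gene (against 4.92%). That gene was Insr, which encodes the insulin receptor. In 9 genes all ecko libraries lay below all controls (22.0%, against 8.11% of all genes), and in 2, Insr and the hypoxia-induced droplet gene Hilpda, all lay above (4.88%, against 7.55%). Insr and Hilpda are named after their values were seen. The 5 smallest p belonged to Dgat2, Srebf1, Cd36, Agpat2 and Gpam. All of these but Gpam were lowest in ecko 1, and genes measured in the same libraries are not independent results. Agpat2, which adds the second fatty acid to the glycerol backbone, averaged 35.4 ± 8.98 CPM in ecko and 57.5 ± 5.59 CPM in control (SD, n = 3 each), with a log2 fold change of -0.70 and an edgeR adjusted p of 0.380. Gpam, which adds the first, averaged 104 ± 2.70 CPM in ecko and 121 ± 9.13 CPM in control (-0.22). Cd36, a fatty acid receptor of fat cells and capillaries, averaged 484 ± 23.6 CPM in ecko and 595 ± 58.4 CPM in control (-0.30). The lipogenic regulator Srebf1 had -0.37, and Dgat2, which completes triglyceride, -0.49 with an edgeR adjusted p of 0.252. DESeq2 called 3 of the list lower, Agpat2, Dgat2 and Srebf1 (adjusted p 0.00306, 0.00152 and 0.0491), where it called 0.174% of all genes lower. Dgat1, Lpin1 and Gk, which act in the same synthesis and are also named after their values were seen, had log2 fold changes of -0.044, -0.019 and 0.011.

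None of the genes in 7 marker lists of other skin cell types passed the edgeR test, where the endothelial list leaves out Kdr. For preadipocyte markers the median fold change was 0.01 in log2, 4 of 8 means were higher, and the summed level was 1288 to 1304 CPM in ecko, against 1211 to 1288 CPM in control. For sebaceous gland markers the median was -0.16 with 6 of 8 lower, and a sum of 207 to 228 CPM in ecko, against 209.5 to 248 CPM in control. With the sebaceous level as a covariate the log2 fold changes were -1.45 for Lep, -0.87 for Gpd1 and -0.54 for Plin1, each with an edgeR adjusted p of 0.880, and the droplet block's median was 0.03. Macrophage markers had a median of 0.12 with 8 of 8 higher, keratinocyte markers -0.10 with 8 of 8 lower, dermal fibroblast markers 0.02 and skeletal muscle markers 0.04. Endothelial markers had a median of -0.16 with 7 of 8 lower, and summed to 366 to 385 CPM in ecko, against 396 to 482 CPM in control. Of these 8, 3 had an unadjusted edgeR p under 0.05, all lower (37.5%, against 4.1% of all genes). In 4 of them all ecko libraries lay below all controls (50%, against 8.11% of all genes). An unadjusted edgeR p under 0.05 was also met by 2 macrophage markers and 1 preadipocyte marker, all higher (against 4.92% of all genes), and by 1 keratinocyte marker, which was lower. No gene of these lists was at 0 in all libraries. Their part in the values of the fat genes was not tested beyond the muscle and sebaceous covariates.

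**Figure D5:**
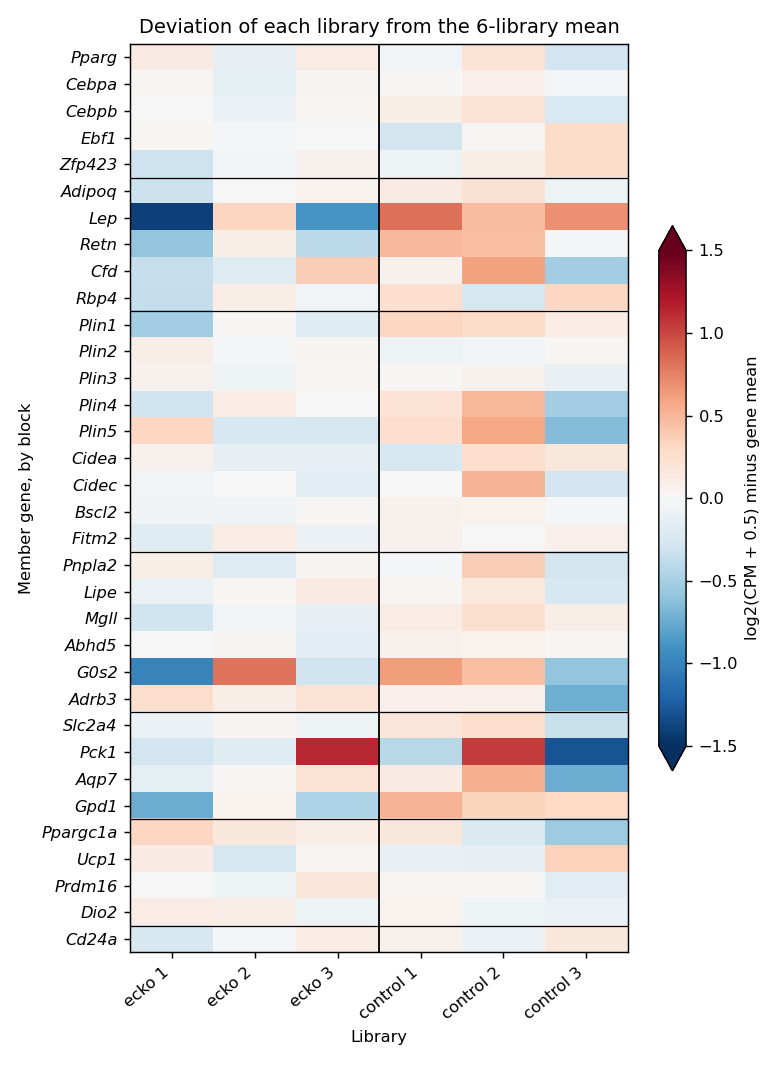
Deviation of each library from the mean of 6, as log2(CPM + 0.5), for each of the 34 genes by block, ecko libraries left and control libraries right (colours end at 1.5). Lep, Retn, Plin1 and Gpd1 are blue in ecko 1 and ecko 3, G0s2 is red in ecko 2 and blue in ecko 1, and Pck1 is red in ecko 3 and control 2 and blue in control 3.

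Some counts could include reads of neighbours. Exons of 11 members overlap exons of another annotated gene, and the strand setting is not given in the sources used here. For Gpd1 the shared stretch is 384 bases (the antisense gene Gm16537), for Mgll 152 bases and for Lipe 861 bases. Bscl2 was the 1 member with counts that are not whole numbers. It shares 398 exon bases with Gng3 on the other strand and 239 with AC129217.1 on its own strand. Lep, Retn and Plin1 share no exon base with another annotated gene.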

How the data were processed

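Expected counts of 6 libraries were deposited in 1 table, without scaling. The unit was inferred because 10.1% to 10.4% of entries in each library have decimals. HISAT2 2.2.1, Bowtie2 2.4.5, RSEM 1.3.1 and GRCm38.p6 are named, with no role or order, per the submitters' processing notes. The annotation and strand setting are not given in the sources used here. Expected counts were rounded, filtered with filterByExpr (minimum count 10), scaled by TMM and tested with glmQLFit (robust) and glmQLFTest of edgeR 4.0.16 in R 4.3.3, two-sided, with Benjamini-Hochberg adjustment over 14920 genes and a threshold of 0.05. SE was taken as the size of the log2 fold change over the root of its F statistic. CPM uses library sizes scaled by TMM. CPM per kb divides by the union of exons in GENCODE M21 (GRCm38). Motifs were searched in RefSeq windows of 250 bases. No molecular identifiers are recorded, and precision from counts covers read sampling only.

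The members, blocks and marker lists were chosen with earlier results of these data known. Values of every library are given for the 2 members of each block with the smallest unadjusted p and for Pparg, Adipoq, Plin1, Pnpla2, Lipe, Slc2a4, Ucp1 and Cd24a. Of the 42 other pathway genes, the 5 with the smallest p are named. G0s2, Pck1, Cfd and Aqp7 fall outside this rule. Alternatives were DESeq2 1.42.0 (size factors, Wald test), limma-voom (limma 3.58.1), other filters, no robust estimation, a replicate block, muscle and sebaceous covariates, and leaving out the 20 most abundant genes or each library. The Y-linked covariate and the fit on 4 libraries were added after the data were seen.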

Additional observations from a re-analysis of the deposited data

How the results depend on the processing

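Of 594 log2 fold changes of the 33 tested members under 18 alternatives, 549 kept their direction, and 16 members, Lep, Retn, Plin1, Mgll and Gpd1 among them, kept it under all. No edgeR or limma-voom fit called a member, and DESeq2 called 1 lower. Over all genes DESeq2 called 87 higher and 26 lower, the muscle covariate 43 and 7, the 4 libraries with Y-linked reads 2 and 2, and the Y-linked covariate 1 higher. Leaving out a library gave 0 to 2 higher calls (2 without ecko 3) and 1 lower call each time. A replicate block called 88 genes higher and 10 lower, and 0 members. Deviations from the group means of same-numbered libraries correlated at 0.162, -0.237 and -0.0726. The largest correlation was 0.336, between control 2 and ecko 3, the libraries almost without Y-linked reads. The labels do not say whether replicate numbers pair the libraries. These correlations cannot decide it, since they take every source of variation between libraries together.

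Members with a lower mean in ecko numbered 15 in the 4 libraries, and those lower without overlap 4 to 11 with a library left out. Both counts, like the Y-linked alternatives, were chosen after seeing the data. The droplet median was 0.033 with the sebaceous covariate, 0.023 in the 4 libraries and -0.14 to 0.047 with a library left out. The lipolysis median was 0.052 in the 4 libraries and -0.14 to 0.018 with a library left out.

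Directions reversed as follows, and the cause was not tested. Aqp7 had 0.055 with limma-voom, 0.035 with the replicate block and 0.018 with the Y-linked covariate. With the muscle covariate Ebf1 had 0.066, Plin3 -0.0034 and Lipe -0.00011. With the sebaceous covariate Ebf1 had 0.094, Plin5 0.033, Cidea 0.10, Cidec 0.034, Pnpla2 0.10 and Aqp7 0.066. In the 4 libraries Cebpb had 0.012, Plin4 0.023, Plin5 0.23, Cidea 0.0017, Cidec 0.12, Pnpla2 0.11, G0s2 0.032, Slc2a4 0.028 and Aqp7 0.19. With a library left out the ranges were -0.31 to 0.28 for Aqp7, -0.080 to 0.0078 for Cebpa, -0.17 to 0.038 for Cebpb, -0.38 to 0.18 for Cfd and -0.34 to 0.066 for Cidec. They were -0.16 to 0.12 for Ebf1, -0.88 to 0.11 for G0s2, -0.066 to 0.12 for Lipe, -0.35 to 1.17 for Pck1, -0.026 to 0.058 for Plin3 and -0.42 to 0.047 for Plin4. They were -0.54 to 0.12 for Plin5, -0.19 to 0.13 for Pnpla2, -0.047 to 0.20 for Pparg, -0.0043 to 0.14 for Prdm16 and -0.26 to 0.0076 for Slc2a4. Ucp1, at 1 to 6 counts, was too low to be tested, and how depth limits the other members was not tested.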
